A study of Pelodiscus sinensis with 8 samples.

Results

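The fourth interdigital web, the tissue between digits IV and V of the Chinese soft-shell turtle (Pelodiscus sinensis), was compared with webs 1 to 3 of the same limbs. Web 4 was sequenced as 1 forelimb library and 1 hindlimb library, and webs 1 to 3 as 3 libraries in each limb, so that 2 of the 8 libraries in all were set against the other 6. Genes were described by where both web 4 libraries lay outside the range of the other 6 libraries. Of 14999 tested genes, 2041 met that rule (13.6%), 1040 with both web 4 libraries above (6.93%) and 1001 with both below (6.67%).

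Every library was a pool of 40 webs, taken from the left and right sides of 20 individuals at stage 19 of the Tokita-Kuratani series. All were described as wild type, and the labels name no treatment. The genotype tag read ICD for the forelimb and anti-ICD for the hindlimb, and neither was spelled out. The 2 web 4 libraries thus stood for 1 position in each limb, the labels name no second pool of other animals, and p-values measure only the spread between these pools.

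In tetrapod limbs the web region is loose mesenchyme under a thin epidermis, and its cells either die and are cleared or persist as a web. In chick and mouse the regression is driven by BMP and retinoic acid signals and is opposed by FGF signals from the apical ridge, while turtles that swim keep much of the tissue as a web. Webs also differ by position: 5' HoxD genes, HAND2 and TBX2 act on the side of the posterior digits, and ALX4, LHX9 and MEIS factors are known for anterior or proximal domains.

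Libraries held 53116512 to 65849337 counts, and log2 CPM (counts scaled by library total and TMM factor) correlated between libraries at 0.955 to 0.977 across genes. The library closest to forelimb web 4 was hindlimb web 4 (0.975), and the one closest to hindlimb web 4 was hindlimb web 3 (0.976). Across the 14999 genes, which are not independent replicates, the forelimb and hindlimb differences of web 4 from webs 1 to 3 correlated at 0.283. The median difference over all tested genes was -0.01 on the log2 scale. Limb mesenchyme markers summed to 8404 and 10537 CPM in web 4, against 7824 to 10848 CPM in webs 1 to 3, and none of the 10 in the table stood at 0.

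The 1040 genes above and the 1001 genes below were not alike in size. The genes above had a median difference of 0.33 on the log2 scale, and 128 of them (12.3%) differed at least 2-fold. The genes below had a median of -0.64, and 311 (31.1%) differed at least 2-fold, against 8.70% of all tested genes. The range rule picked both sets by these same values, so larger differences than over all genes are built in. The genes below were also less abundant, with a median of 13.3 CPM in the higher group, against 40.7 CPM for the genes above. The part of abundance in the unlike sizes was not tested. Most genes of both sets stood only just outside: the median gap between the nearer web 4 library and the nearest of the other 6 was 0.0655 log2 units above and 0.129 below. In 18 genes above and 51 below the gap was at least 1 log2 unit. Of the genes above, 66 failed a count filter set to need all of the other 6 libraries, which is stricter than the filter by web group used for testing.

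The split of the genes into above and below depended on scaling. Web 4 was the higher side in 51.0% of the genes outside the range with TMM scaling, in 34.0% with library size alone (685 above, 1327 below) and in 29.1% by TPM, the authors' values per transcript length (571 above, 1388 below). By both CPM and TPM, 556 genes were above and 975 below. The range rule also counted genes that were graded over the whole limb. Levels climbed from web 1 to web 3 in both limbs in 186 of the genes above (17.9%), against 9.09% of all tested genes, and declined in both limbs in 212 of the genes below (21.2%), against 10.3% of all tested genes.

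**Figure D1:**
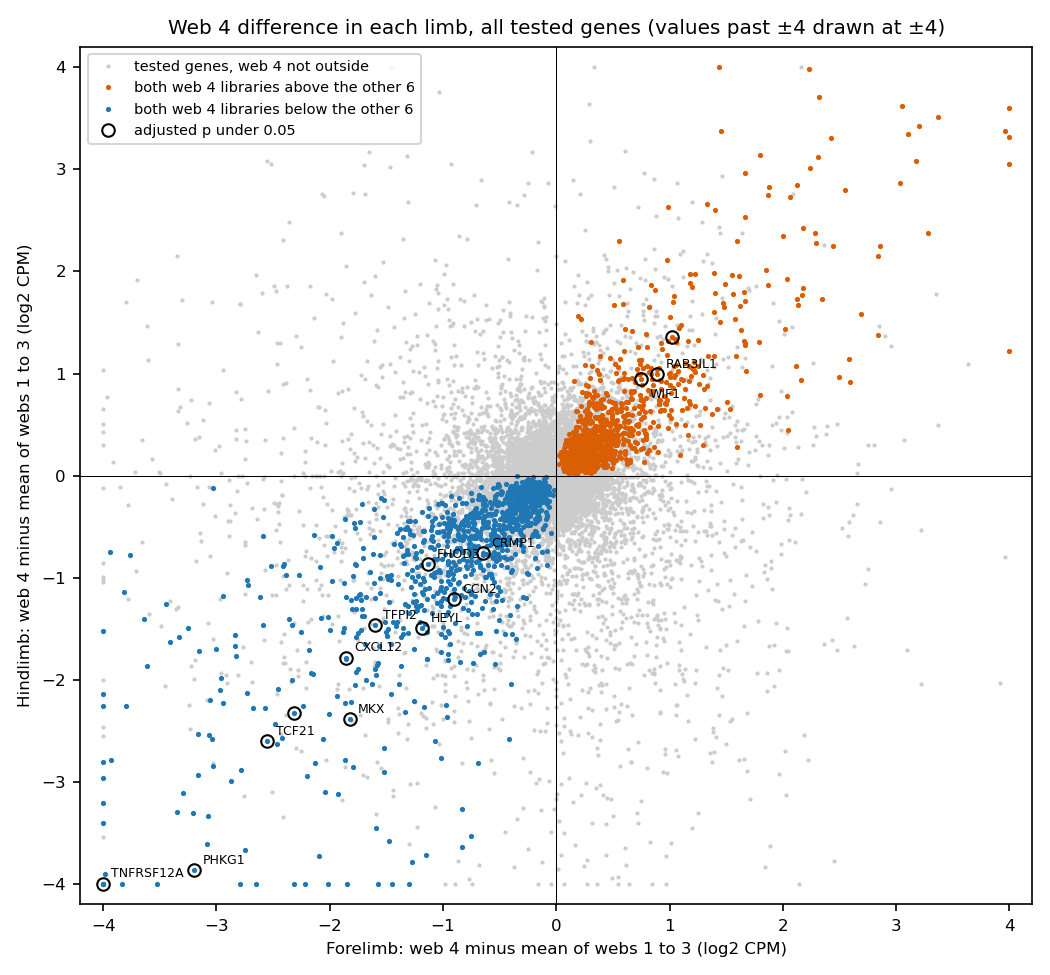
Difference of web 4 from the mean of webs 1 to 3 (log2 CPM) in the forelimb (horizontal axis) and in the hindlimb (vertical axis) for the 14999 tested genes, with values past 4 drawn at 4. Orange points are the 1040 genes with both web 4 libraries above the other 6, blue points the 1001 with both below, and rings mark the 14 genes at an adjusted p under 0.05, of which 3 are higher and 11 lower in web 4.

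Across all genes, 14 passed in web 4 against webs 1 to 3 with limb as covariate (0.0933% of those tested, 0.02% higher and 0.0733% lower; edgeR by quasi-likelihood with Benjamini-Hochberg adjusted p under 0.05). At an unadjusted p under 0.05 there were 1698 (11.3%). WIF1, RAB3IL1 and a gene without a symbol, ENSPSIG00000006482, were higher in web 4. Among the 11 lower genes were TNFRSF12A, PHKG1, TCF21, MKX, CXCL12, TFPI2, HEYL, CCN2, FHOD3 and CRMP1. All 14 had both web 4 libraries outside the range of the other 6. In this fit the differences among webs 1 to 3 count as spread. With web number as a factor, which leaves 3 residual degrees of freedom, 951 genes passed (6.34%), 390 higher (2.6%) and 561 lower (3.74%), and 665 of them were outside the range. That fit takes out the differences among webs 1 to 3, so its spread is only how unlike the limbs were from web to web. A gene graded alike in both limbs can therefore pass without web 4 standing apart. HAND2 and BTG2 passed it (edgeR, adjusted p = 1.93e-06 and 0.000319) and were not outside the range. DESeq2 called 148 higher and 323 lower, and limma-voom called 0, with 1529 at an unadjusted p under 0.05 and a lowest adjusted p of 0.0566.

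Single libraries moved the count of 14 strongly. Leaving out web 2 of either limb, or web 4 of the forelimb, gave 0 higher and 1 lower. It was 0 and 3 without hindlimb web 1, and 0 and 2 without hindlimb web 4. Without forelimb web 3 it was 31 and 47, without hindlimb web 3 it was 38 and 62, and without forelimb web 1 it was 3 and 12. TNFRSF12A passed in each of these 8 fits. The other 13 genes no longer passed once web 2 or web 4 of either limb was left out, and all but CXCL12 also failed without hindlimb web 1. PHKG1, CCN2, FHOD3 and ENSPSIG00000006482 did not pass without forelimb web 1 either. All 14 kept their sign in each of the 21 alternatives.

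**Figure D2:**
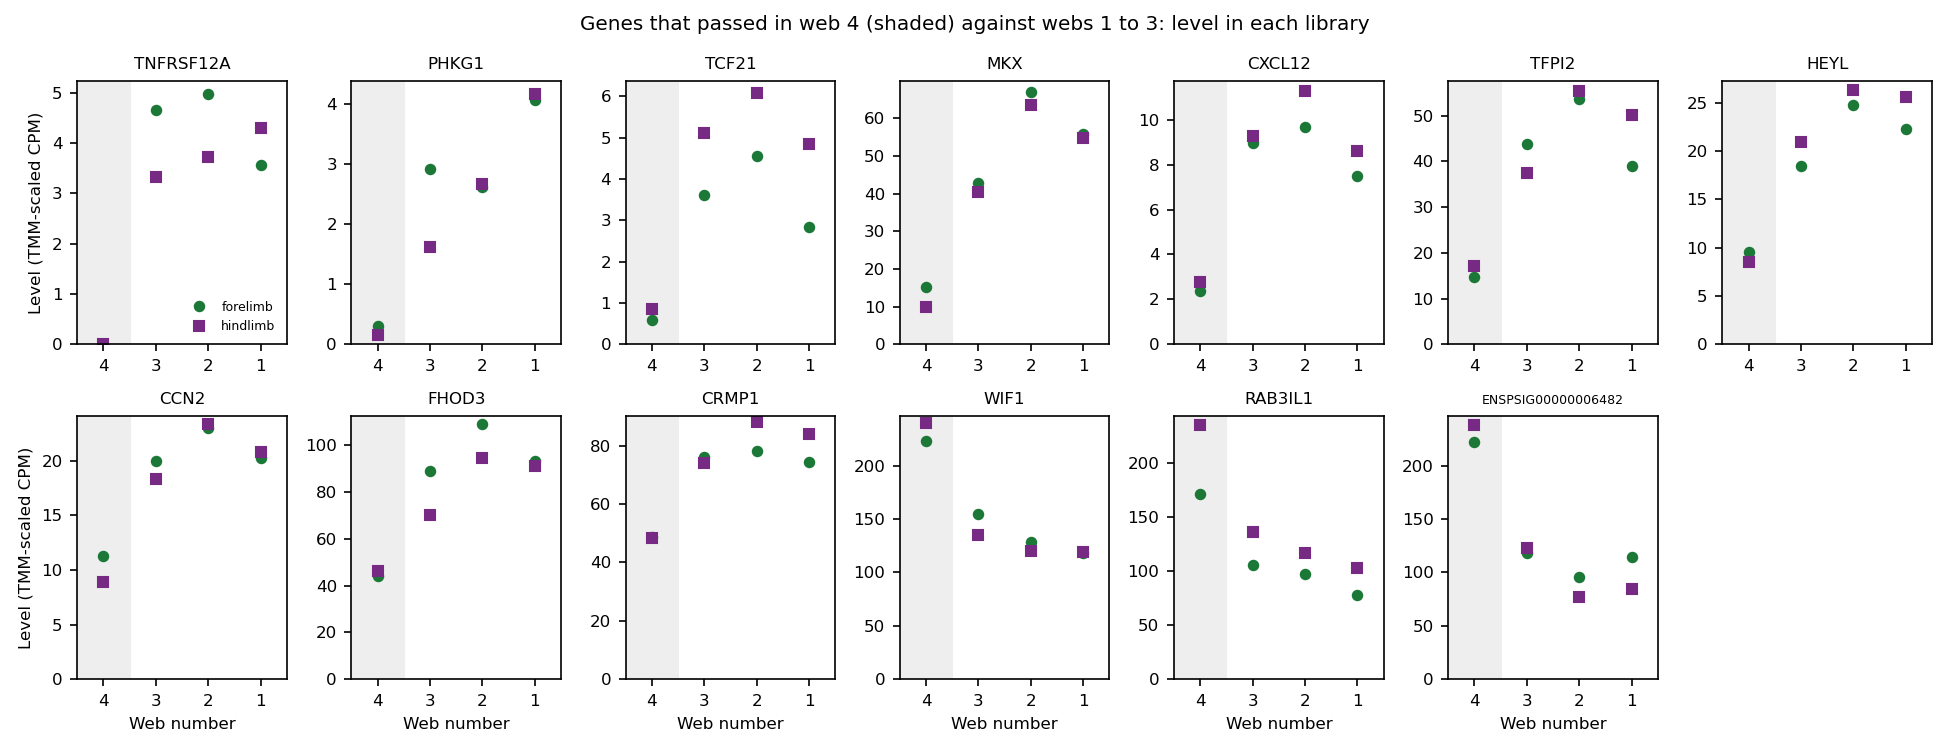
Level (TMM-scaled CPM, vertical axis, from 0) of 13 of the genes that passed, by web number (horizontal axis, web 4 shaded at the left), with circles for the forelimb and squares for the hindlimb, 1 library each. In 10 panels both web 4 libraries lie below the other 6, with TNFRSF12A at 0 in both, and in the panels of WIF1, RAB3IL1 and ENSPSIG00000006482 they lie above.

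Transcription factors were among the lower genes. MKX (ENSPSIG00000004814), the Mohawk homeobox factor of tendon differentiation, had 15.3 and 9.91 CPM in web 4 of the forelimb and hindlimb, against 55.9, 66.9 and 42.9 CPM in forelimb webs 1 to 3 and 54.7, 63.6 and 40.4 CPM in hindlimb webs 1 to 3. In each limb web 2 was highest and web 4 lowest. It fell by 2.12 ± 0.24 on the log2 scale (SE; edgeR quasi-likelihood test, adjusted p = 0.0287). In bulk tissue, fewer cells that express such a gene and less of its RNA per cell cannot be told apart. TCF21 (ENSPSIG00000003604), a helix-loop-helix factor of mesenchyme, had 0.585 and 0.846 CPM in web 4, against 2.83, 4.56 and 3.62 CPM in forelimb webs 1 to 3 and 4.85, 6.09 and 5.12 CPM in hindlimb webs 1 to 3. It fell by 2.65 ± 0.28 (edgeR, adjusted p = 0.0268), with 32 and 46 counts in web 4.

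HEYL (ENSPSIG00000016897), a repressor induced by Notch, had 9.53 and 8.55 CPM in web 4, against 22.3, 24.7 and 18.5 CPM in forelimb webs 1 to 3 and 25.6, 26.3 and 20.9 CPM in hindlimb webs 1 to 3. The lowest of the other 6 libraries was forelimb web 3, still well above both web 4 libraries. HEYL fell by 1.35 ± 0.16 on the log2 scale (edgeR, adjusted p = 0.0325).

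Secreted proteins made up another set of the lower genes. CXCL12 (ENSPSIG00000015057), the chemokine ligand of the receptor CXCR4, had 2.36 and 2.78 CPM in web 4, against 7.51, 9.66 and 8.95 CPM in forelimb webs 1 to 3 and 8.61, 11.3 and 9.26 CPM in hindlimb webs 1 to 3. It fell by 1.84 ± 0.19 on the log2 scale (edgeR, adjusted p = 0.0268), and the level did not climb or decline steadily over webs 1 to 3 in either limb. TFPI2 (ENSPSIG00000014164), an inhibitor of serine proteases in the matrix, had 14.8 and 17.0 CPM in web 4, against 39.0, 53.6 and 43.8 CPM in forelimb webs 1 to 3 and 50.0, 55.4 and 37.5 CPM in hindlimb webs 1 to 3. TFPI2 fell by 1.55 ± 0.18 (edgeR, adjusted p = 0.0287).

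CCN2 (ENSPSIG00000014924), a matricellular growth factor also listed with the immediate early genes, had 11.2 and 8.94 CPM in web 4, against 20.3, 23 and 20.0 CPM in forelimb webs 1 to 3 and 20.8, 23.4 and 18.3 CPM in hindlimb webs 1 to 3. The 6 other libraries lay within 0.35 log2 units of each other, and the gap to web 4 was 0.70 units. CCN2 fell by 1.06 ± 0.14 (edgeR, adjusted p = 0.0455).

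TNFRSF12A (ENSPSIG00000017655), the receptor of the cytokine TWEAK, was listed at 0 counts in both web 4 libraries, against 213, 334 and 255 counts in forelimb webs 1 to 3 and 233, 203 and 184 counts in hindlimb webs 1 to 3. By TPM it was likewise listed at 0 in web 4, against 19.1 to 30.6 TPM in webs 1 to 3. It had the lowest adjusted p of the comparison (edgeR, 0.00138), which ranged up to 0.201 over the 21 alternatives. The table held 2 other genes at 0 in some libraries and at 100 counts or more in every other library. ENSPSIG00000014744 was at 0 in hindlimb web 1 alone, and ENSPSIG00000015953 was at 0 in forelimb web 3, hindlimb web 1 and hindlimb web 3. Neither of these 2 patterns followed web position. At lower counts, MT4, HOXB8 and ENSPSIG00000003805 were also at 0 in both web 4 libraries. In webs 1 to 3 they had 12 to 146, 4 to 61 and 8 to 60 counts. No size of change is given for TNFRSF12A, and whether its 0 values stand for absent RNA or for an estimate that failed was not tested.

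The remaining lower genes encode proteins of the cell interior. PHKG1 (ENSPSIG00000011387), a catalytic subunit of muscle phosphorylase kinase, had 0.311 and 0.147 CPM in web 4, against 4.07, 2.61 and 2.92 CPM in forelimb webs 1 to 3 and 4.17, 2.66 and 1.62 CPM in hindlimb webs 1 to 3. It fell by 3.73 ± 0.51 on the log2 scale (edgeR, adjusted p = 0.0462), with 17 and 8 counts in web 4. Skeletal muscle markers, of which 17 of 23 were tested, summed to 522 and 225 CPM in web 4, against 168 to 1022 CPM in webs 1 to 3. None of the 17 in the table stood at 0 and none lay outside the range in web 4, and their part in the PHKG1 result was not tested.

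FHOD3 (ENSPSIG00000014398), a formin that assembles actin filaments, had 44.1 and 46.3 CPM in web 4, against 93.2, 109 and 89.0 CPM in forelimb webs 1 to 3 and 91.2, 94.4 and 70.1 CPM in hindlimb webs 1 to 3. It fell by 1.01 ± 0.14 (edgeR, adjusted p = 0.0462). CRMP1 (ENSPSIG00000005503), a mediator of semaphorin responses in the cytoskeleton, had 48.8 and 48.3 CPM in web 4, against 74.6, 78.3 and 76.2 CPM in forelimb webs 1 to 3 and 84.1, 88.1 and 73.9 CPM in hindlimb webs 1 to 3. It fell by 0.70 ± 0.09 (edgeR, adjusted p = 0.0325), the smallest change of the 14, on the narrowest range over webs 1 to 3.

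On the higher side, WIF1 (ENSPSIG00000005739), a secreted inhibitor that binds Wnt proteins, had 223 and 240 CPM in web 4, against 118, 128 and 154 CPM in forelimb webs 1 to 3 and 119, 120 and 135 CPM in hindlimb webs 1 to 3. It rose by 0.84 ± 0.10 on the log2 scale (edgeR, adjusted p = 0.0325). Its level also climbed in order over webs 1 to 3 of both limbs. RAB3IL1 (ENSPSIG00000006042), an exchange factor for Rab proteins of vesicle transport, had 171 and 235 CPM in web 4, against 77.3, 97.1 and 105 CPM in forelimb webs 1 to 3 and 103, 116 and 136 CPM in hindlimb webs 1 to 3. It rose by 0.93 ± 0.12 (edgeR, adjusted p = 0.0455), and it too climbed in order in both limbs.

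ENSPSIG00000006482, which carried no symbol, had 222 and 238 CPM in web 4, against 115, 95.7 and 118 CPM in forelimb webs 1 to 3 and 84.0, 76.9 and 123 CPM in hindlimb webs 1 to 3. It rose by 1.18 ± 0.16 (edgeR, adjusted p = 0.0462), and webs 1 to 3 showed no steady order in either limb. Of the 14 genes, 7 also left the line through webs 1 to 3, as described further on.

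A stricter view asked where web 4 stood apart by more than the whole range of the other 6 libraries. This measure was added after the values had been seen, and it is given without a test of its own. It held for 36 genes above and 70 below, and for 30 and 46 of these the higher group averaged at least 2 CPM. Of the 30 above, 21 had a symbol, 16 passed with web number as a factor and 2 passed in the comparison with limb alone. Of the 46 below, 40 had a symbol, 39 passed with web number as a factor and 10 passed with limb alone. The same values chose these genes and those named in the next paragraphs, so passing in either fit is no separate support.

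**Figure D3:**
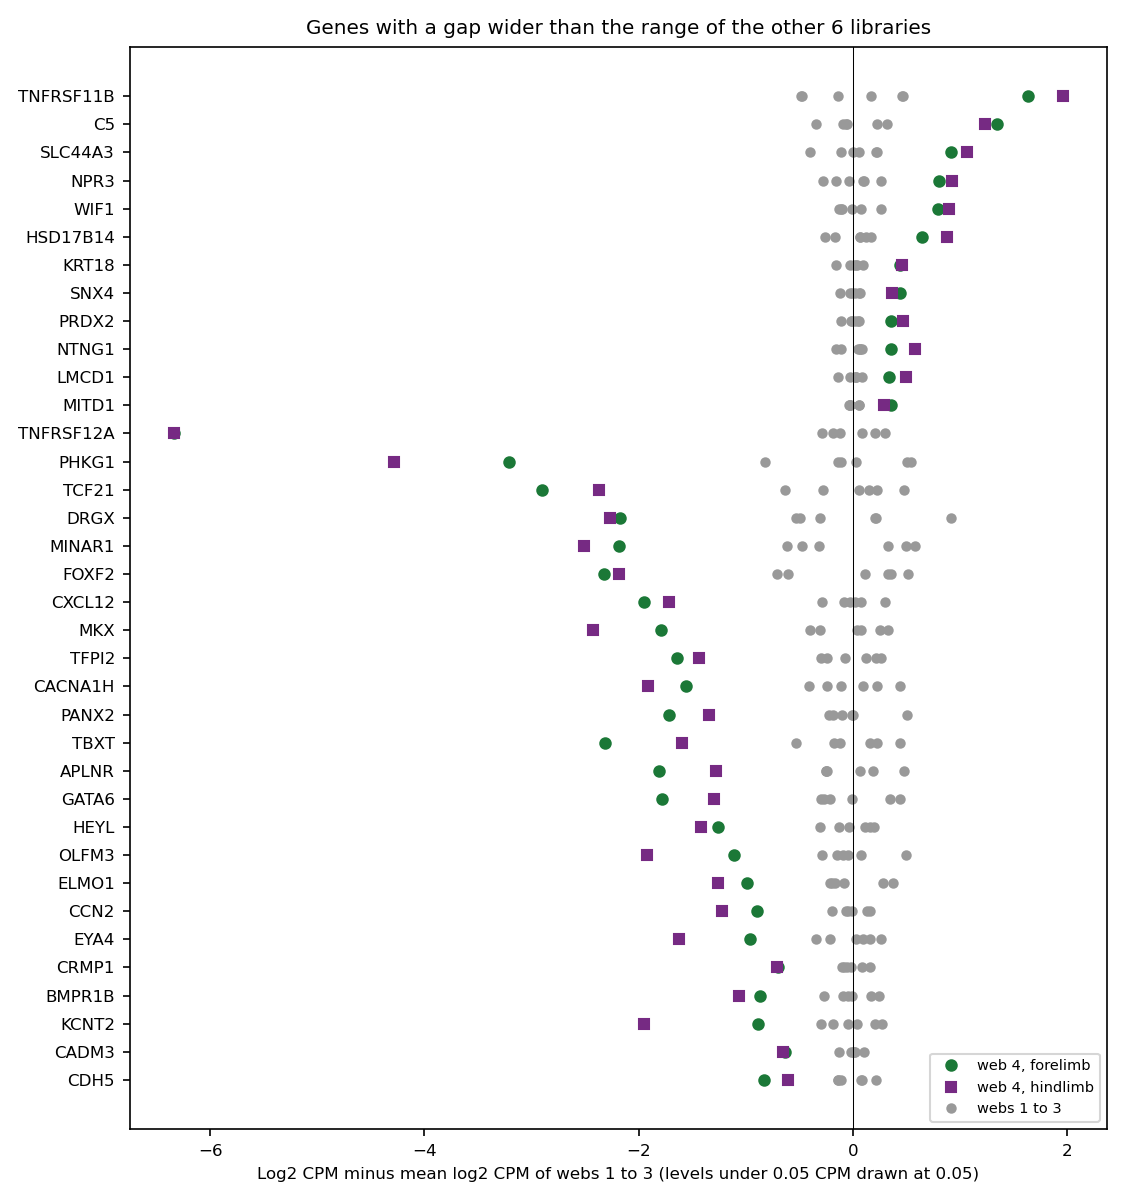
Log2 CPM of each library minus the mean of webs 1 to 3 (horizontal axis) for the genes with a symbol and the widest gaps among those whose gap exceeds the range of the other 6 libraries, 1 gene per line. Large circles and squares are forelimb and hindlimb web 4 and small grey points the 6 libraries of webs 1 to 3, with levels under 0.05 CPM drawn at 0.05. Web 4 lies to the right for the 12 genes at the top, TNFRSF11B among them, and to the left for the genes from TNFRSF12A down.

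In this set the widest gap on the higher side, among genes with a symbol, was that of TNFRSF11B. TNFRSF11B, osteoprotegerin, the decoy receptor that restrains osteoclasts, had 3.09 and 3.86 CPM in web 4, against 0.712 to 1.37 CPM in webs 1 to 3. C5, a component of complement, had 13.2 and 12.3 CPM in web 4, against 4.13 to 6.53 CPM in webs 1 to 3. NPR3, the clearance receptor of natriuretic peptides, had 54.4 and 59.2 CPM in web 4, against 25.7 to 37.3 CPM in webs 1 to 3. In all 3 genes web 3 stood much nearer to webs 1 and 2 than to web 4.

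Smaller and tight differences marked 2 abundant genes. KRT18, a keratin of simple epithelia, had 173 and 175 CPM in web 4, against 114 to 137 CPM in webs 1 to 3. PRDX2, a peroxiredoxin, had 214 and 231 CPM in web 4, against 155 to 174 CPM in webs 1 to 3. The log2 differences were 1.75 for TNFRSF11B, 1.28 for C5, 0.86 for NPR3, 0.45 for KRT18 and 0.41 for PRDX2, and none passed with limb as the only other term (edgeR, adjusted p 0.0575 to 0.108).

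On the lower side, other genes than those that passed had gaps of the same kind. FOXF2, a forkhead factor of limb and facial mesenchyme, had 7.72 and 8.52 CPM in web 4, against 23.6 to 55.4 CPM in webs 1 to 3. GATA6, a zinc finger factor, had 8.74 and 12.2 CPM in web 4, against 24.4 to 40.9 CPM in webs 1 to 3. DRGX, a homeobox factor known from sensory neurons, had 0.805 and 0.754 CPM in web 4, against 2.51 to 6.86 CPM in webs 1 to 3. In FOXF2 and DRGX levels already declined in order over webs 1 to 3 of both limbs. In GATA6 web 2 was the highest in both limbs.

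APLNR, the apelin receptor, had 4.79 and 6.95 CPM in web 4, against 14.1 to 23.5 CPM in webs 1 to 3. BMPR1B, a type I BMP receptor needed for digit cartilage in mice, had 3.27 and 2.85 CPM in web 4, against 4.97 to 7.06 CPM in webs 1 to 3. CACNA1H, a T-type calcium channel, had 1.41 and 1.10 CPM in web 4, against 3.12 to 5.62 CPM in webs 1 to 3. With limb as the only other term these 6 genes had adjusted p values of 0.0579 to 0.12 in edgeR and did not pass, with log2 differences of -2.32 for FOXF2, -1.56 for GATA6, -2.29 for DRGX, -1.56 for APLNR, -0.98 for BMPR1B and -1.76 for CACNA1H. All 6, chosen by their gap in the same values, passed with web number as a factor (edgeR, adjusted p 1.3e-06 to 0.0189). FOXF2 and APLNR were also under the line through webs 1 to 3 described further on, by values of -1.17 ± 0.20 and -1.71 ± 0.31 (edgeR, adjusted p = 0.0485 and 0.0491).

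In further genes, as in FOXF2 and DRGX, a level that already changed from web to web went furthest in web 4. SP9, a factor of the apical ridge, had 11.6 and 7.21 CPM in web 4, against 0.0669, 0.745 and 1.19 CPM in forelimb webs 1 to 3 and 0.0738, 0.660 and 2.76 CPM in hindlimb webs 1 to 3. Each step from web to web was upward in both limbs. CNTN5, an adhesion molecule of neurons, had 70.4 and 89.7 CPM in web 4, against 10.2, 13.8 and 38.4 CPM in forelimb webs 1 to 3 and 10.9, 13.9 and 35.7 CPM in hindlimb webs 1 to 3.

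PDGFC, a growth factor for mesenchyme, had 257 and 246 CPM in web 4, against 91.5, 97.1 and 149 CPM in forelimb webs 1 to 3 and 96.4, 115 and 164 CPM in hindlimb webs 1 to 3. LUM, the matrix proteoglycan lumican, had 1237 and 1429 CPM in web 4, against 423, 534 and 986 CPM in forelimb webs 1 to 3 and 282, 412 and 733 CPM in hindlimb webs 1 to 3. For these 4 genes web 3 lay between web 4 and the first webs. On the lower side SFRP2, a secreted Wnt modulator, had 25.8 and 18.3 CPM in web 4, against 116, 108 and 64.9 CPM in forelimb webs 1 to 3 and 80.5, 77.9 and 41.0 CPM in hindlimb webs 1 to 3. None of the 5 passed with limb alone (edgeR, adjusted p 0.0725 to 0.223), and all 5 passed with web number as a factor (edgeR, adjusted p 1.3e-06 to 7.85e-05). The 5 were named after these values were seen, so passing that fit is no separate support.

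Since web 4 ends a row, a separate fit asked whether it left the straight line on the log2 scale that webs 1 to 3 set, with limb and web number as terms. In that fit 22 genes were higher and 26 lower than the line at an adjusted p under 0.05 (edgeR quasi-likelihood test, 0.32% of those tested), and 1756 (11.7%) had an unadjusted p under 0.05. DESeq2 gave 177 higher and 157 lower, and limma-voom 20 and 25. The counts were 1 and 3 without forelimb web 1, 0 and 1 without forelimb web 3, 0 and 4 without hindlimb web 2, 12 and 10 without forelimb web 4, and 8 and 13 without hindlimb web 3. Without hindlimb web 1 they were 21 and 11, and without hindlimb web 4 they were 56 and 48. All 48 genes kept their sign in each of these fits.

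Most of these genes had climbed or declined in order over webs 1 to 3 of both limbs. Of the 22 higher than the line, 21 declined from web 1 to web 3 in both limbs, and none of the 22 lay outside the range of the other 6 libraries. Of the 26 lower than the line, 14 climbed from web 1 to web 3 in both limbs, 10 lay below the range and 1, HOXD11, lay above it. Not all of them turned back in web 4. HOXD11 and HAND2 climbed further in both limbs, and BTG2, over the line, went from 121 CPM in hindlimb web 3 to 116 CPM in hindlimb web 4.

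**Figure D4:**
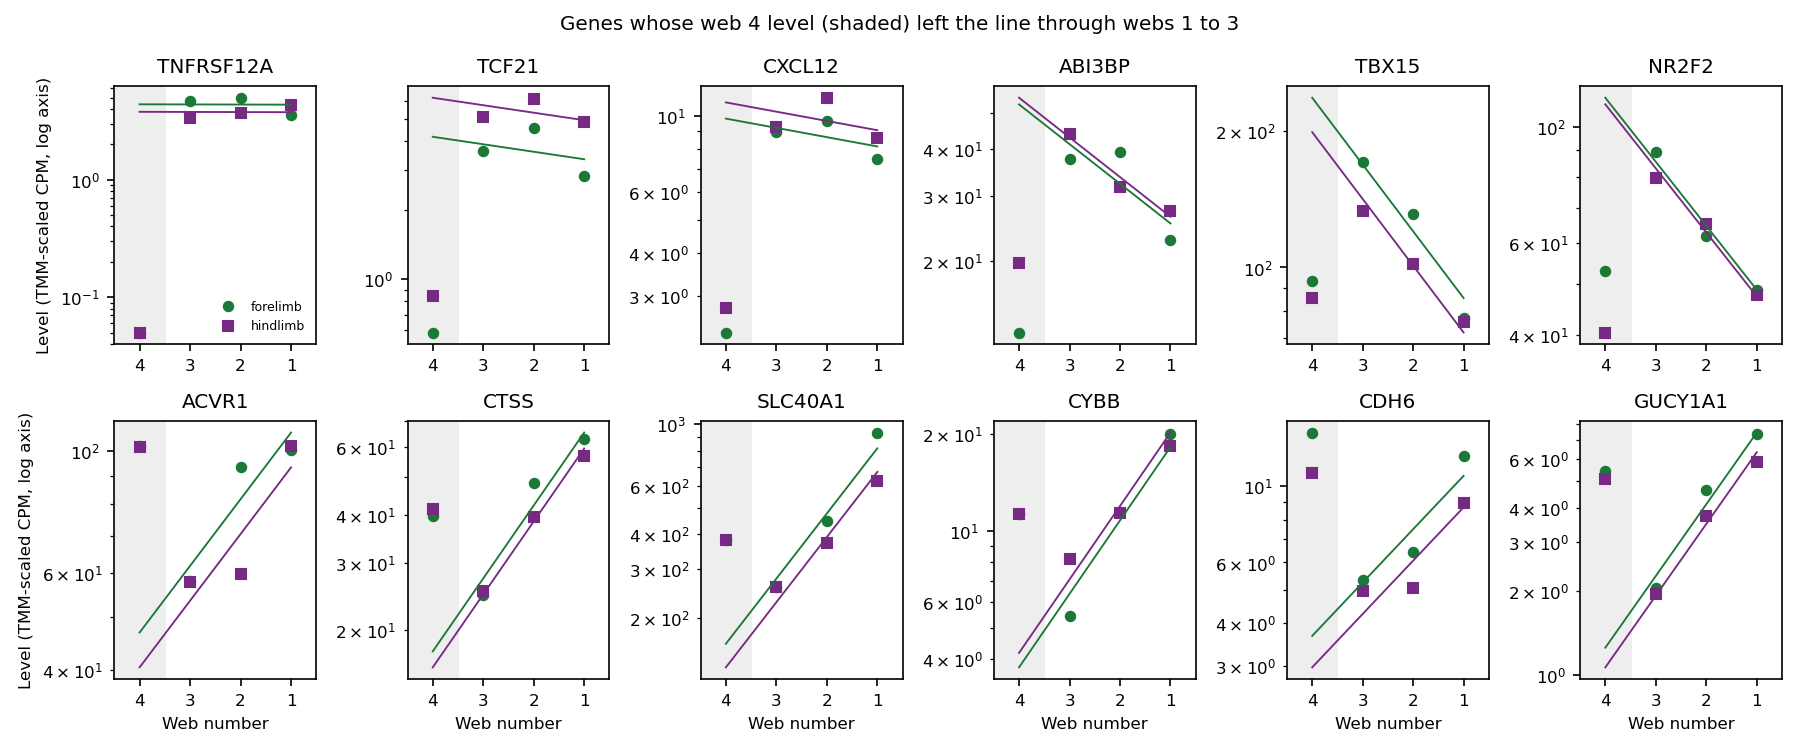
Level (TMM-scaled CPM, log axis) by web number (horizontal axis, web 4 shaded at the left) for 12 genes that left the line, with circles for the forelimb, squares for the hindlimb and lines drawn through webs 1 to 3 of each limb with a shared slope. The top 6 panels lie under the line in web 4, with TNFRSF12A at 0 drawn at 0.05 CPM, and the bottom 6 lie over it.

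Of the genes under the line, TBX15 and NR2F2 had the lowest adjusted p values after TNFRSF12A. TBX15, a T-box factor of limb mesenchyme, had 93.3 and 85.8 CPM in web 4, against 77.4, 131 and 171 CPM in forelimb webs 1 to 3 and 75.7, 102 and 134 CPM in hindlimb webs 1 to 3. It was 1.28 ± 0.13 log2 units under the line, a value of -1.28 (edgeR, adjusted p = 0.00572). NR2F2, the nuclear receptor COUP-TFII, had 52.9 and 40.4 CPM in web 4, against 48.7, 61.8 and 89.5 CPM in forelimb webs 1 to 3 and 47.5, 65.0 and 79.9 CPM in hindlimb webs 1 to 3, with -1.27 ± 0.14 (edgeR, adjusted p = 0.0086). Both genes peaked in web 3 of each limb, and their web 4 levels were back at those of webs 1 and 2 or under them.

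ABI3BP, a matrix protein, had 12.9 and 19.8 CPM in web 4, against 22.8, 39.3 and 37.7 CPM in forelimb webs 1 to 3 and 27.4, 31.7 and 44.0 CPM in hindlimb webs 1 to 3, with -1.75 ± 0.23 (edgeR, adjusted p = 0.0204). TCF21 and CXCL12, described above, stood at -2.86 ± 0.38 and -2.02 ± 0.26 (edgeR, adjusted p = 0.0204 each). TNFRSF12A also passed (edgeR, adjusted p = 0.000815). PHKG1, MKX and TFPI2 were also among the 7 genes that passed in both fits.

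Of the 13 tested macrophage markers 2, CTSS and CYBB, were called over the line and none under it, against 0.147% over and 0.173% under among all genes. SLC40A1, ferroportin, the exporter of iron, had 383 and 383 CPM in web 4, against 935, 449 and 257 CPM in forelimb webs 1 to 3 and 623, 373 and 258 CPM in hindlimb webs 1 to 3. It was 1.40 ± 0.17 log2 units over the line (edgeR, adjusted p = 0.017). CTSS, a lysosomal protease of macrophages, had 39.6 and 41.4 CPM in web 4, against 63.0, 48.4 and 24.7 CPM in forelimb webs 1 to 3 and 56.8, 39.4 and 25.3 CPM in hindlimb webs 1 to 3, with 1.26 ± 0.17 (edgeR, adjusted p = 0.0204). In each gene the lowest library of a limb was web 3.

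CYBB, the NADPH oxidase subunit of phagocytes, had 11.3 and 11.3 CPM in web 4, against 20.0, 11.5 and 5.46 CPM in forelimb webs 1 to 3 and 18.3, 11.4 and 8.19 CPM in hindlimb webs 1 to 3, with 1.48 ± 0.24 (edgeR, adjusted p = 0.0342). As a sum the 13 tested macrophage markers of 21 listed also had web 1 highest and web 3 lowest in each limb. The sum was 161 and 171 CPM in web 4, against 315, 219 and 124 CPM in forelimb webs 1 to 3. In hindlimb webs 1 to 3 it was 276, 197 and 133 CPM. None of the 13 stood at 0 or lay outside the range in web 4, and the list holds CTSS and CYBB. The part of the number of macrophages in these values was not tested.

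The genes over the line also included ACVR1, CDH6 and GUCY1A1. ACVR1, a type I receptor of BMPs and activins, had 102 and 102 CPM in web 4, against 100, 93.7 and 58.1 CPM in forelimb webs 1 to 3 and 102, 59.7 and 57.8 CPM in hindlimb webs 1 to 3, with 1.22 ± 0.19 (edgeR, adjusted p = 0.0315). CDH6, a cadherin, had 14.3 and 10.9 CPM in web 4, against 12.3, 6.44 and 5.33 CPM in forelimb webs 1 to 3 and 8.96, 5.06 and 4.94 CPM in hindlimb webs 1 to 3, with 1.92 ± 0.27 (edgeR, adjusted p = 0.0225). GUCY1A1, a subunit of the nitric oxide receptor, was 2.17 ± 0.31 over the line (edgeR, adjusted p = 0.0225), with 5.41 and 5.06 CPM in web 4, against 1.95 to 7.36 CPM in webs 1 to 3.

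For the lists, passing refers to the fit with limb as the only other term unless another fit is named. Each share of a list outside the range is to be read beside 6.93% above and 6.67% below over all tested genes. Counts with web number as a factor are to be read beside 2.6% higher and 3.74% lower. A share near these values says nothing particular about a list. Among patterning genes, none of the 14 tested HOXA and HOXD genes passed, and several were graded by web number. With web number as a factor 3 were higher and 0 lower, against 2.6% and 3.74% of all tested genes. HOXD11 was among the 3 (edgeR, adjusted p = 1.3e-06). HOXD10, HOXD11 and HOXA11 lay above the range and HOXD1 below it (21.4% and 7.14% of the list, against 6.93% and 6.67% of all tested genes). By library size alone 1 lay above, and the median difference was 0.11 on the log2 scale. HOXD11 had 29.8 and 32.8 CPM in web 4, against 0.201, 6.12 and 24.7 CPM in forelimb webs 1 to 3 and 0.350, 5.15 and 29.0 CPM in hindlimb webs 1 to 3. Its climb flattened in web 4, at -2.99 ± 0.47 against the line (edgeR, adjusted p = 0.0342). HOXD12 had 503 and 472 CPM in web 4, against 509 and 458 CPM in web 3 of the forelimb and hindlimb, so the groups overlapped.

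HAND2, a factor of the posterior limb bud, had 69.1 and 110 CPM in web 4, against 11.0, 26.9 and 58.7 CPM in forelimb webs 1 to 3 and 15.3, 40.9 and 84.8 CPM in hindlimb webs 1 to 3. Within each limb web 4 was highest, but hindlimb web 3 exceeded forelimb web 4, so HAND2 was not outside the range. It lay at -0.96 ± 0.13 against the line (edgeR, adjusted p = 0.0221). With web number as a factor the HAND2 difference was 1.48 ± 0.07 (edgeR, adjusted p = 1.93e-06). TBX2, a T-box repressor, had 84.9 and 102 CPM in web 4, against 28.8, 48.1 and 65.0 CPM in forelimb webs 1 to 3 and 26.4, 41.4 and 64.0 CPM in hindlimb webs 1 to 3, above the range.

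Of the 12 tested posterior and hedgehog genes, TBX2 lay above (8.33%, against 6.93% of all tested genes). CDON and GLI3 lay below (16.7%, against 6.67%), and the list median was -0.05. None of the 12 passed, and with web number as a factor 2 were higher and 4 lower. CDON, a coreceptor of hedgehog proteins, had 189 and 187 CPM in web 4, against 213 to 338 CPM in webs 1 to 3. SHH itself was at 0 counts in all 8 libraries, and HOXA13 and TBX3 were not analysed here. Of 16 anterior limb genes, MEIS1, IRX5, IRX3 and PAX9 lay above, 2 of them also by TPM, and IRX2, LHX9, ALX4 and LHX2 lay below (25% each), with a median of -0.32. MEIS1, a homeobox partner of HOX proteins, had 231 and 244 CPM in web 4, against 125 to 189 CPM in webs 1 to 3. LHX9 had 15.5 and 21.1 CPM in web 4, against 21.6 to 220 CPM in webs 1 to 3, where web 3 already stood near web 4.

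In the BMP list of 23 tested, BMP7 lay above (4.35%, against 6.93% of all tested genes). BMP2, BMPR1B, MSX1 and MSX2 lay below (17.4%, against 6.67%), and the list median was -0.21. None of the 23 passed, and with web number as a factor 1 was higher and 6 lower. BMP2, a ligand tied to interdigital cell death in chick and mouse, had 26.7 and 26.6 CPM in web 4, against 33.6 to 50.8 CPM in webs 1 to 3. BMP7, a ligand of the same family, had 197 and 214 CPM in web 4, against 66.9, 113 and 141 CPM in forelimb webs 1 to 3 and 92.2, 129 and 164 CPM in hindlimb webs 1 to 3. BMP4 overlapped, with 30.3 and 46.0 CPM in web 4, against 40.6 to 49.1 CPM in webs 1 to 3.

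Both MSX genes, homeobox targets of BMP, lay below in web 4. MSX1 had 252 and 235 CPM in web 4, against 288 to 546 CPM in webs 1 to 3, and MSX2 had 549 and 506 CPM, against 739 to 936 CPM. Their log2 differences of -0.79 and -0.68 did not pass (edgeR, adjusted p = 0.261 and 0.0789). Of 15 BMP antagonists (median 0.07) SOSTDC1 lay above (6.67%, against 6.93% of all tested genes) and CHRDL1 and SOST below (13.3%, against 6.67%). SOST, sclerostin, had 0.366 and 0.736 CPM in web 4, against 1.5 to 3.34 CPM in webs 1 to 3.

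**Figure D5:**
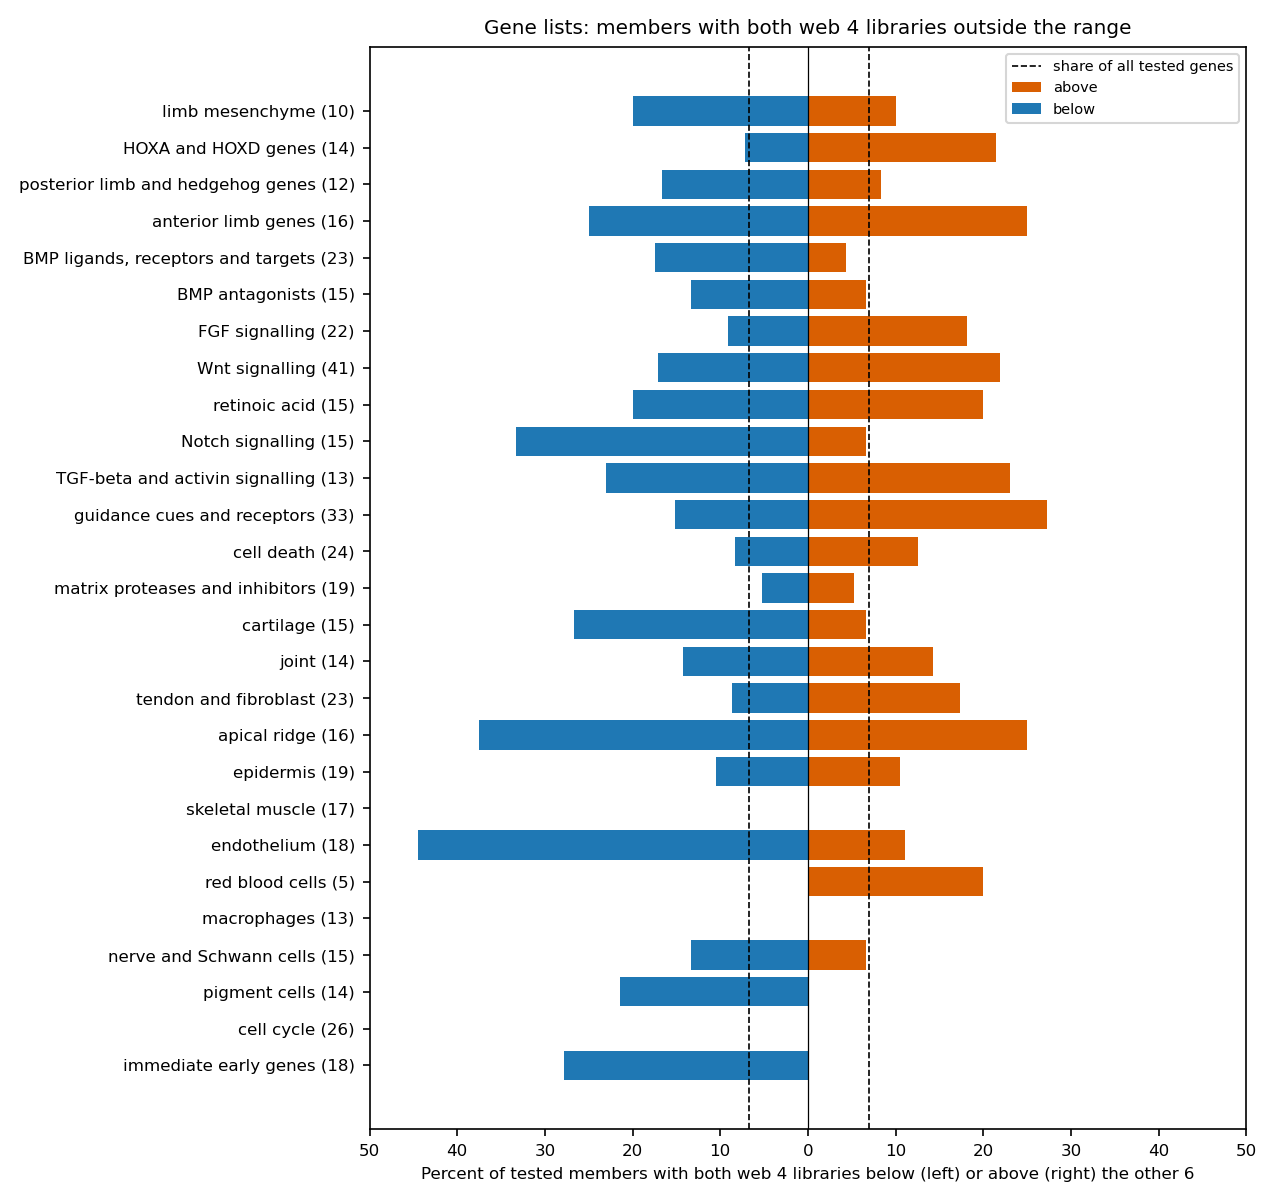
Share of the tested members of each of the 27 gene lists (number tested in brackets) with both web 4 libraries below (bars to the left) or above (bars to the right) the other 6 libraries, in percent. Dashed lines give the shares over all 14999 genes, 6.67% below and 6.93% above. The longest bar to the left is endothelium, with 8 of 18 members, and the longest to the right is guidance cues, with 9 of 33.

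FGF and Wnt genes stood on both sides, with medians of 0.06 and 0.09. Of 22 FGF genes, FGF7, FGF10, FGF1 and SPRY1 lay above (18.2%), 2 of 22 by TPM, and FGF16 and SPRY4 below (9.09%). The shares of all tested genes were 6.93% and 6.67%. FGF10, the mesenchymal FGF that maintains the apical ridge, had 114 and 96.4 CPM in web 4, against 48.1, 66.4 and 93.7 CPM in forelimb webs 1 to 3 and 52.8, 64.9 and 78.8 CPM in hindlimb webs 1 to 3. FGF1 had 18.8 and 13.4 CPM in web 4, against 6.11 to 10.7 CPM in webs 1 to 3. FGF8, the ridge signal, reached 40 counts over all 8 libraries.

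Of 41 Wnt genes 9 lay above and 7 below (22.0% and 17.1%, against 6.93% and 6.67% of all tested genes). By TPM it was 7 and 7, and WIF1 alone passed. With web number as a factor 7 were higher and 7 lower. DKK3 and DKK1, secreted modulators of Wnt signalling, lay below: DKK3 had 40.4 and 37.0 CPM in web 4, against 53.3 to 87.8 CPM in webs 1 to 3, and DKK1 had 13.7 and 13.7 CPM, against 15.8 to 39.8 CPM. NOTUM, an enzyme that inactivates Wnt proteins, had 33.9 and 40.8 CPM in web 4, against 16.9 to 28.7 CPM in webs 1 to 3. WNT9A, a ligand of joint regions, had 9.84 and 5.89 CPM in web 4, against 15.2 to 40.8 CPM in webs 1 to 3, and RSPO3, an amplifier of Wnt signals, had 3.15 and 3.05 CPM, against 5.36 to 15.1 CPM. Secreted inhibitors thus stood on both sides.

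Enzymes that degrade retinoic acid parted in web 4. CYP26A1 had 31.5 and 31.0 CPM in web 4, against 9.67 to 23.1 CPM in webs 1 to 3. CYP26B1, of the same family, had 28.7 and 36.3 CPM in web 4, against 40.9 to 98.3 CPM in webs 1 to 3. Of 15 retinoic acid genes (median -0.12), CYP26A1, DHRS3 and CYP26C1 lay above, and CRABP2, RDH10 and CYP26B1 below (20% each). The shares of all tested genes were 6.93% and 6.67%, and by TPM 2 of the list lay above and 5 below. None of the 15 passed (edgeR, adjusted p 0.193 to 0.316 for CYP26A1, CYP26B1, RDH10 and CRABP2). With web number as a factor 2 were higher and 4 lower.

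Of 15 Notch genes, HEYL passed, and LFNG, NOTCH1, HES4 and DLL4 also lay below (5 in all, 33.3%, against 6.67% of all tested genes). HEY2 lay above (6.67%, against 6.93%), and the list median was -0.49 on the log2 scale. With web number as a factor 1 was higher and 5 lower. LFNG, a glycosyltransferase that tunes Notch receptors, had 5.08 and 6.58 CPM in web 4, against 7.45 to 18.3 CPM in webs 1 to 3. HEY2, a Notch target like HEYL, had 88.6 and 74.4 CPM in web 4, against 28.1 to 62.5 CPM in webs 1 to 3. HEYL and HEY2 thus stood on opposite sides of webs 1 to 3, while over the list 3 differences were positive and 12 negative.

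Of 13 genes of TGF-beta and activin signalling (median -0.17), SMAD3, TGFBR1 and TGFBR3 lay above, 1 of 13 by TPM, and GDF10, SMAD2 and TGFBI below (23.1% each). The shares of all tested genes were 6.93% and 6.67%. TGFBI, a matrix protein induced by TGF-beta, had 171 and 204 CPM in web 4, against 241 to 475 CPM in webs 1 to 3. Guidance cues held 9 of 33 above (27.3%) and 5 below (15.2%), with 6 and 5 by TPM and a median of 0.07. Above were the repellents SLIT2, with 138 and 142 CPM in web 4, against 52.9 to 106 CPM in webs 1 to 3, and SEMA3A, with 119 and 113 CPM, against 44.0 to 87.3 CPM. Below were the receptors EPHA3, with 8.23 and 9.43 CPM in web 4, against 14.5 to 30.6 CPM in webs 1 to 3, and ROBO2, with 41.3 and 32.8 CPM, against 55.9 to 106 CPM. None of these 4 passed (edgeR, adjusted p 0.11 to 0.261).

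Apical ridge genes lay outside on both sides, with 4 of 16 above and 6 below (25% and 37.5%) and a median difference of -0.52. The shares of all tested genes were 6.93% and 6.67%, and by TPM 3 of the list lay above and 7 below. None of the 16 passed, and with web number as a factor 4 were higher and 7 lower. TP63, WNT3, SP9 and RSPO2 were above. Below were BMP2, EN1 and the distalless homeobox genes DLX1, DLX2, DLX5 and DLX6. DLX6 had 14.1 and 13 CPM in web 4, against 53.4, 39.5 and 17.6 CPM in forelimb webs 1 to 3 and 50.5, 35.7 and 17.2 CPM in hindlimb webs 1 to 3, so web 3 was already close to web 4. The list summed to 473 and 468 CPM in web 4, against 509 to 773 CPM in webs 1 to 3. Of 19 epidermis genes (median -0.05) TP63 and KRT18 lay above and KRT15 and GRHL3 below (10.5% each), with 1 and 3 by TPM. The epidermis sum was 2243 and 2238 CPM in web 4, against 2117 to 5434 CPM.

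Endothelial genes had the highest share below, 8 of 18 (44.4%, against 6.67% of all tested genes), and a median difference of -0.46. FLI1 and ERG lay above (11.1%, against 6.93%), and by TPM 1 lay above and 10 below. CDH5, the cadherin of vessel walls, had 27.9 and 32.5 CPM in web 4, against 45.0, 57.8 and 46.1 CPM in forelimb webs 1 to 3 and 52.4, 52.7 and 45.1 CPM in hindlimb webs 1 to 3. TEK, the angiopoietin receptor, had 4.74 and 8.94 CPM in web 4, against 10.2 to 15 CPM in webs 1 to 3. PECAM1, EGFL7, FLT4, SOX18, CD34 and TIE1 were below too, and none of the list passed (edgeR, adjusted p = 0.0789 for CDH5). With web number as a factor 2 were higher and 6 lower. ERG, which is also a joint gene, had 65.6 and 80.4 CPM in web 4, against 30.7 to 64.1 CPM in webs 1 to 3. As a sum the list overlapped, with 339 and 392 CPM in web 4, against 333 to 411 CPM, and no member in the table stood at 0.

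Skeletal tissue genes also stood on both sides. Of 15 cartilage genes (median -0.26) COL2A1 lay above (6.67%, against 6.93% of all tested genes). RUNX2, RUNX3, SOX9 and MATN4 lay below (26.7%, against 6.67%). COL2A1, the main collagen of cartilage, had 200 and 262 CPM in web 4, against 147 to 178 CPM in webs 1 to 3, while SOX9, the factor that drives its expression, had 42.8 and 43.3 CPM, against 46.8 to 55.7 CPM. RUNX3 had 5.01 and 2.12 CPM in web 4, against 6.08 to 35.8 CPM in webs 1 to 3. Of 14 joint genes (median -0.19) OSR2 and ERG lay above and JUN and WNT9A below (14.3% each), with 1 and 2 by TPM. Of 23 tendon and fibroblast genes (median -0.10) LUM, KERA, COL14A1 and ASPN lay above (17.4%) and MKX and EGR1 below (8.70%). By TPM the tendon counts were 3 and 2. Of 10 limb mesenchyme genes (median -0.06) LUM lay above (10%) and TBX18 and PRRX1 below (20%).

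Immediate early genes lay below or within the range, with FOSL2, CCN2, JUN, ATF3 and EGR1 below of 18 tested (27.8%), none above, and a median of -0.21. FOSL2 had 16.5 and 13.3 CPM in web 4, against 17.4 to 47.0 CPM in webs 1 to 3. Pigment cell genes had DCT, RAB38 and SLC45A2 below of 14 (21.4%, median -0.42). DCT, an enzyme of melanin synthesis, had 3.64 and 2.52 CPM in web 4, against 9.88 to 13.5 CPM in forelimb webs 1 to 3 and 3.97 to 7.27 CPM in hindlimb webs 1 to 3. Of 15 nerve and Schwann cell genes (median -0.63) ISL1 lay above (6.67%, against 6.93% of all tested genes). NGFR and NEFL lay below (13.3%, against 6.67%). By TPM 0 of the nerve list lay above and 4 below, and by library size alone 0 and 3. Of 5 red blood cell genes (median -0.04) GYPC lay above (20%).

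Of 24 cell death genes (median 0.01) 3 lay above (12.5%), AIFM1 and CASP6 among them, and 2 below (8.33%), BMF among them. By TPM 0 lay above. Over all tested genes 6.93% lay above and 6.67% below. Of 19 matrix proteases and inhibitors (median 0.03) ADAMTS4 lay above and MMP16 below (5.26% each). By TPM, and by library size alone, 0 of this list lay above and 1 below. None of the 26 cell cycle, 17 skeletal muscle and 13 macrophage genes lay outside the range, with medians of 0.05, -0.39 and -0.42. Over all lists WIF1, HEYL, MKX and CCN2 were the members that passed with limb as the only other term.

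The last comparison asked whether the difference of web 4 from webs 1 to 3 was unlike in the hindlimb and the forelimb. No gene passed in edgeR (0% of 14999). An unadjusted p under 0.05 was found for 569 genes (3.79%), no more than chance alone would mark at that threshold. By DESeq2 there were 5, all with a higher value in the hindlimb, ARL6IP4, KDM8, COL1A1, COL1A2 and ENSPSIG00000004848, and by limma-voom there were 0. With 1 web 4 library in each limb, the test rests on the spread among webs 1 to 3.

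In ARL6IP4 and KDM8 it was forelimb web 4 that stood apart, and in COL1A2 both web 4 libraries did. ARL6IP4, a splicing regulator, had 64.5 CPM in hindlimb web 4, against 62.1, 63.5 and 64.0 CPM in hindlimb webs 1 to 3, and 21.9 CPM in forelimb web 4, against 57.7, 64.0 and 68.5 CPM in forelimb webs 1 to 3. The hindlimb difference minus the forelimb difference was 1.56 on the log2 scale (edgeR, adjusted p = 0.34). KDM8, an oxygenase, had 39.5 CPM in hindlimb web 4, against 38.8 to 44.0 CPM in hindlimb webs 1 to 3, and 18.4 CPM in forelimb web 4, against 41.4 to 46.5 CPM in forelimb webs 1 to 3 (difference 1.18, edgeR, adjusted p = 1.00). COL1A2, a chain of type I collagen, had 3086 CPM in hindlimb web 4, against 2427 to 2543 CPM in hindlimb webs 1 to 3, and 2253 CPM in forelimb web 4, against 2851 to 3298 CPM in forelimb webs 1 to 3 (difference 0.75, edgeR, adjusted p = 1.00).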

How the data were processed

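Interdigital webs were sequenced as 8 pooled libraries. Per the labels' protocols, RNA was column-purified with DNase and made into NEBNext Ultra libraries read as Illumina paired ends, with no strand setting named, so reads of overlapping or antisense genes may be shared. HISAT2 2.2.1 and StringTie 2.1.7 are named in the submitters' processing notes. Build: not given in the sources used here, like the annotation.

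The authors deposited whole-number counts per gene, not normalised, and TPM per gene with symbols. Of 20472 counts from 1 to 40, 35.5% were multiples of 4 (an even spread gives 25%), so a count may not be 1 independent read, and no counting interval is given. Of 19328 genes, 14999 passed filterByExpr by web group (minimum count 10, minimum total 15), 4258 of them (28.4%) without a symbol.

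Counts were scaled by TMM (factors 0.973 to 1.02) and tested with edgeR 4.0.16 in R 4.3.3 by quasi-likelihood with Benjamini-Hochberg adjustment at 0.05. Terms were limb and web 4 (5 residual degrees of freedom), with web number added for the line or the limb product for the limb difference (4 each). Standard errors are the log2 difference over the root of F. Log2 CPM used a prior count of 2. DESeq2 1.42.0, limma 3.58.1 (voom, and TPM with pseudocounts of 1 and 0.1), other scalings, filters and terms, and leaving out each library were tried.

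The genes described, the 27 lists and the tests were chosen with earlier results of these data known. The rule for named genes took passing genes with the largest change or gap that had a symbol and at least 2 CPM, passing or most abundant list members, the lowest p against the line and for the limb difference, and a fixed set of limb genes. Genes of the wider gap set, the graded genes and list members that did not pass were named after their values were seen. Results of 3 genes are not reported here.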

Additional observations from a re-analysis of the deposited data

Results flagged for a closer look

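Among the 6 libraries of webs 1 to 3, single libraries stood apart in 2 of the 118 genes checked, by a gap that takes up more of the whole range than Dixon's critical value allows. NOTCH1 had 37.9 CPM in forelimb web 3, against 45.6 to 49.6 CPM in the other 5 libraries of webs 1 to 3. PANX2, a pannexin channel, had 3.25 CPM in forelimb web 1, against 1.95 to 2.29 CPM in the other 5. Chance alone marks about 1 in 20 such groups.

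In ARL6IP4 and COL1A2 hindlimb web 4 lay above hindlimb webs 1 to 3 and forelimb web 4 lay below forelimb webs 1 to 3. For ARL6IP4 the hindlimb levels nearly coincided, and only forelimb web 4 stood apart. The hindlimb difference minus the forelimb difference was 1.56 for ARL6IP4 and 0.75 for COL1A2 on the log2 scale, and the test of that difference did not pass (edgeR, adjusted p = 0.34 and 1.00).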

How the results depend on the processing

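In the comparison of web 4 with webs 1 to 3, the counts of genes that passed depended on the test more than on the scaling. The range rule has no test, and its count of genes above depended on the scaling. For web 4 against webs 1 to 3 (3 higher, 11 lower), library size alone gave 3 and 14, and size factors of DESeq2 in edgeR, the limb filter and no filter gave 3 and 11. Other settings gave 148 and 323 (DESeq2), 390 and 561 (web number as a factor), 0 and 0 (limma-voom, with or without web number as a random block), 5 and 17 (no limb term), 6 and 19 (webs 2 and 3 only), 7 and 16 (robust prior), 1 and 13 (log2(TPM + 1)) and 0 and 19 (log2(TPM + 0.1)). Leaving out 1 library gave 0 to 38 higher and 1 to 62 lower. For genes outside the range (1040 above, 1001 below), library size alone gave 685 above and TPM gave 571, and leaving out 1 library gave 1139 to 2784 above and 1075 to 2537 below. Apart from rescaling, leaving out a library can only make the range rule easier to meet, and most so for a web 4 library. Those higher counts therefore do not measure stability. Against the line (22 higher, 26 lower), DESeq2 gave 177 and 157, library size alone 9 and 21, the robust prior 35 and 35, and leaving out 1 library 0 to 56 higher and 1 to 48 lower. For the limb difference (0), DESeq2 gave 5 and leaving out 1 library of webs 1 to 3 gave 0, and no fit was possible without forelimb or hindlimb web 4. The causes were not tested. The random block left 1052 genes at an unadjusted p under 0.05, with a lowest adjusted p of 0.0807.

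No paired analysis was possible because the web numbers that libraries of both limbs share are what the comparison tests, and limb was already a term. Of 2475 values of 123 single gene results, 2109 kept their direction and side of the threshold, 211 came to pass and 154 no longer passed. The 2109 include genes that passed neither in the main fit nor in the alternative, so that count does not measure stability. BMP4 changed sign, with a range of -0.48 to 0.0125 on the log2 scale when 1 library was left out, the upper end without forelimb web 4. Depth limits the genes with few counts, such as TCF21 and PHKG1 in web 4.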
